A study of Homo sapiens with 27 samples.

Results

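The genes described here are 31 genes of cholesterol and fatty acid synthesis, among 36536 gene symbols or unnamed rows measured, in MCF10A cells given epidermal growth factor (EGF), oncostatin M (OSM) and transforming growth factor beta (TGFB). They were chosen by name from textbook pathways, with earlier results of these data known. Of these, 6 belong to the mevalonate pathway and 11 lead from farnesyl diphosphate to cholesterol. Another 4 encode the sterol regulatory element-binding proteins (SREBPs) and their regulators. The rest are the sterol carrier gene STARD4 and 9 genes of fatty acid and glycerolipid synthesis. All 31 had enough counts to be tested, among 15575 genes that did. MCF10A is an established, immortalised, non-tumorigenic line of human breast epithelium, so a group stands for cultures of 1 line on collagen-coated plates. All groups were seeded in growth medium with horse serum, 20 ng/ml EGF, hydrocortisone, cholera toxin and insulin, and then spent 18 h in medium without growth factors. The T0 group received nothing and was taken at 0 h. The others were taken 24 h after phosphate-buffered saline (PBS), EGF, OSM or TGFB, each ligand at 10 ng/ml, or after EGF+OSM, EGF+TGFB, OSM+TGFB or EGF+OSM+TGFB. Each of the 9 groups had 3 libraries of polyadenylated RNA. The lipid content of the medium without growth factors is not given in the labels, and the labels do not say whether replicates were separate cultures, so p-values measure the spread between these libraries, which may be technical.

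Cells make cholesterol from acetyl-CoA through the mevalonate pathway, which ends in farnesyl diphosphate, and then through squalene and a series of sterol intermediates. Fatty acid synthesis draws on the same acetyl-CoA, which ATP citrate lyase and acetyl-CoA synthetase supply. Both pathways are under SREBP transcription factors: when membrane sterol is low, SCAP escorts the SREBP precursor out of the endoplasmic reticulum and it is cleaved, whereas INSIG proteins hold it back when sterol is plentiful. In epithelial cells that divide, the products serve mainly as membrane lipid, and in the lactating breast as milk fat.

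SREBPs bind sterol regulatory elements close to the start of their target genes, usually together with nuclear factor Y, which binds CCAAT, and Sp1, which binds GC boxes. RefSeq promoter windows on GRCh38.p14, from 250 bases before to 50 bases after a start, matched 28 of the 31 genes by symbol, in 40 windows. FASN, FDFT1 and SQLE were not matched. The windows were searched on both strands for TCACNCCAC (a strict sterol regulatory element core), CCAAT (the nuclear factor Y box) and the GC box GGGCGG. The nuclear factor Y box lay in 25 of the 40 windows (62.5%, against 34.61% of all 35116 windows). It lay in 21 of the 28 genes, against 39.72% of all 27305 genes with a window. All windows include genes that were not tested here, and the share among tested genes was not computed. The GC box lay in 35 of the 40 windows (87.5%, against 44.95%), and the strict core in 1 (2.5%, against 1.13%), that of SREBF2. Among the 28 genes, 17 of the 21 that rose with EGF and 4 of the other 7 held a nuclear factor Y box. PMVK, CYP51A1, ELOVL6 and FADS1 rose with EGF without such a box. Of the genes that fell under every ligand, TM7SF2 held the box, and SCAP and LPIN1 did not. The 250 bases before the start are shown for the gene with the strict core, for 3 enzyme genes that rose with EGF, and for LPIN1, which fell under every ligand and held no such box. They read 5′ to 3′ in the direction of the gene, with CCAAT (or ATTGG, its reverse complement) and the strict core in capitals. Where a gene had several windows, the one with the most such boxes is shown. In SREBF2 (chr22:41832855-41833104, plus strand) the core began 133 bases before the start, and a nuclear factor Y box on the opposite strand 106 bases before it. HMGCS1 (chr5:43313413-43313662, minus strand) had 2 such boxes, IDI1 (chr10:1048887-1049136, minus strand) 3, of which 2 overlap, and MSMO1 (chr4:165327419-165327668, plus strand) 4. The LPIN1 window is chr2:11746382-11746631, plus strand.
SREBF2: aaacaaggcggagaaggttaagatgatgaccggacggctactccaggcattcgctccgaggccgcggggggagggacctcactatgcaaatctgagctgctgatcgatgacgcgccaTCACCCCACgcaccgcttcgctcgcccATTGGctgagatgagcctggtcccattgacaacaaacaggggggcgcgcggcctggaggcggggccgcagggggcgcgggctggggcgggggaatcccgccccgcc
HMGCS1: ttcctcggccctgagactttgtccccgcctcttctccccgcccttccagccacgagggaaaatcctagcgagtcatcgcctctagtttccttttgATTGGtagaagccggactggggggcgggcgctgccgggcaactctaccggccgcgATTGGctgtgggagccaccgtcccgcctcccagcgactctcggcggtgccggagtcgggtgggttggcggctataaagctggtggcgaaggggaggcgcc
IDI1: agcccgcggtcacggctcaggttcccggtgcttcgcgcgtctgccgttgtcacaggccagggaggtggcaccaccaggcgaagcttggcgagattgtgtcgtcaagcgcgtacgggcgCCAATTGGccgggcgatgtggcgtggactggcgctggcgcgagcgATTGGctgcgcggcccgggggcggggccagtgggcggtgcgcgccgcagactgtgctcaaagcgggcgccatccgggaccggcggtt
MSMO1: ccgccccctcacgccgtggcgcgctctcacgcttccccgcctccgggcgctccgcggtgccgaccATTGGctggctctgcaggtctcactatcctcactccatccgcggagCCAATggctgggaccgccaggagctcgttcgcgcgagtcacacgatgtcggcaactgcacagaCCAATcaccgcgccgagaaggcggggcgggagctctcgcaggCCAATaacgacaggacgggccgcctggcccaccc
LPIN1: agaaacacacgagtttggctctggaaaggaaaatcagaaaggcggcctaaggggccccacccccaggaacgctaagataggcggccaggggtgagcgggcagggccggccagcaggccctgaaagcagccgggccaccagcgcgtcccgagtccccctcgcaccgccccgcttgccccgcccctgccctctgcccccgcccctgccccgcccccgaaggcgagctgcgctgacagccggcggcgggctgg

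The total of estimated counts per library ran from 30.1 to 52.9 M (M, mega; median 39.5 M). Levels are given as CPM, counts divided by the scaled library total in M. At this depth the spread between replicates, rather than counting error, sets the precision: the 3 libraries of a group differed by 6.84 to 33.9 chi-square units per degree of freedom. The basal epithelial genes KRT5, KRT14, KRT17, TP63 and LAMB3 and the epithelial cadherin CDH1 were present in all 27 libraries, while EPCAM was low (2.72 to 18.6 CPM). Of genes that define other cells, ADIPOQ, LEP, ALB, CYP7A1, PDGFRA and PTPRC did not pass 0.256 CPM in any library. The fat cell genes PLIN1 and FABP4 reached 0.66 and 6.31 CPM and the endothelial gene PECAM1 ranged from 0.122 to 2.06 CPM, and the matrix gene COL1A1, which epithelial cells given TGFB can also express, ranged from 3.82 to 118 CPM. In a bulk library, a change in the number of cells that express a gene and a change in RNA per cell cannot be told apart.

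Most genes of the group rose with EGF, and fewer and by less with OSM, while TGFB alone moved 13 of them, in both directions. A gene was called where the adjusted p of edgeR's quasi-likelihood test, adjusted by the Benjamini-Hochberg method over all 15575 genes, was under 0.05. With EGF 22 of the 31 were called higher and 3 lower than in PBS, against 34.9% and 38.6% of all genes, and their median log2 fold change was 0.93 (all genes, -0.072). With OSM 17 were higher and 8 lower (all genes, 33.5% and 29.8%), with a median of 0.38. With TGFB 5 were higher and 8 lower (all genes, 19.9% and 15.8%), with a median of -0.066. The EGF+OSM pair had 22 higher and 5 lower (all genes, 37.6% and 39.6%), EGF+TGFB had 23 and 4 (all genes, 36.2% and 37.5%), and OSM+TGFB had 19 and 8 (all genes, 34.2% and 31.8%). With the 3 ligands together 22 were higher and 6 lower (all genes, 37.7% and 36.7%). Medians were 0.86 (EGF+OSM), 1.26 (EGF+TGFB), 0.44 (OSM+TGFB) and 1.08 (3 ligands), while that of all genes lay within 0.1 of 0 in each. The share of genes called higher was thus above the background in 6 of the 7 treatments, and with TGFB alone it was close to it. Together the 31 genes took 0.375% ± 0.0200 of a library's counts in PBS, 0.562% ± 0.0180 with EGF, 0.360% ± 0.0268 with OSM, 0.321% ± 0.0175 with TGFB and 0.662% ± 0.0360 with EGF+TGFB (SD, n = 3). The mitochondrial share of counts was 2.99% in PBS, 1.76% with EGF, 1.83% with OSM, 2.53% with TGFB, 1.62% with EGF+TGFB and 1.30% with the 3 ligands, and its part in these changes was not tested. Genes of proliferation moved as well: of 6 markers (MKI67, TOP2A, CCNB1, CDK1, PCNA and MCM2) 6 rose with EGF (median 3.83) and 6 with OSM (3.31), and 1 fell with TGFB; their part in the lipid genes' changes was not tested.

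**Figure D1:**
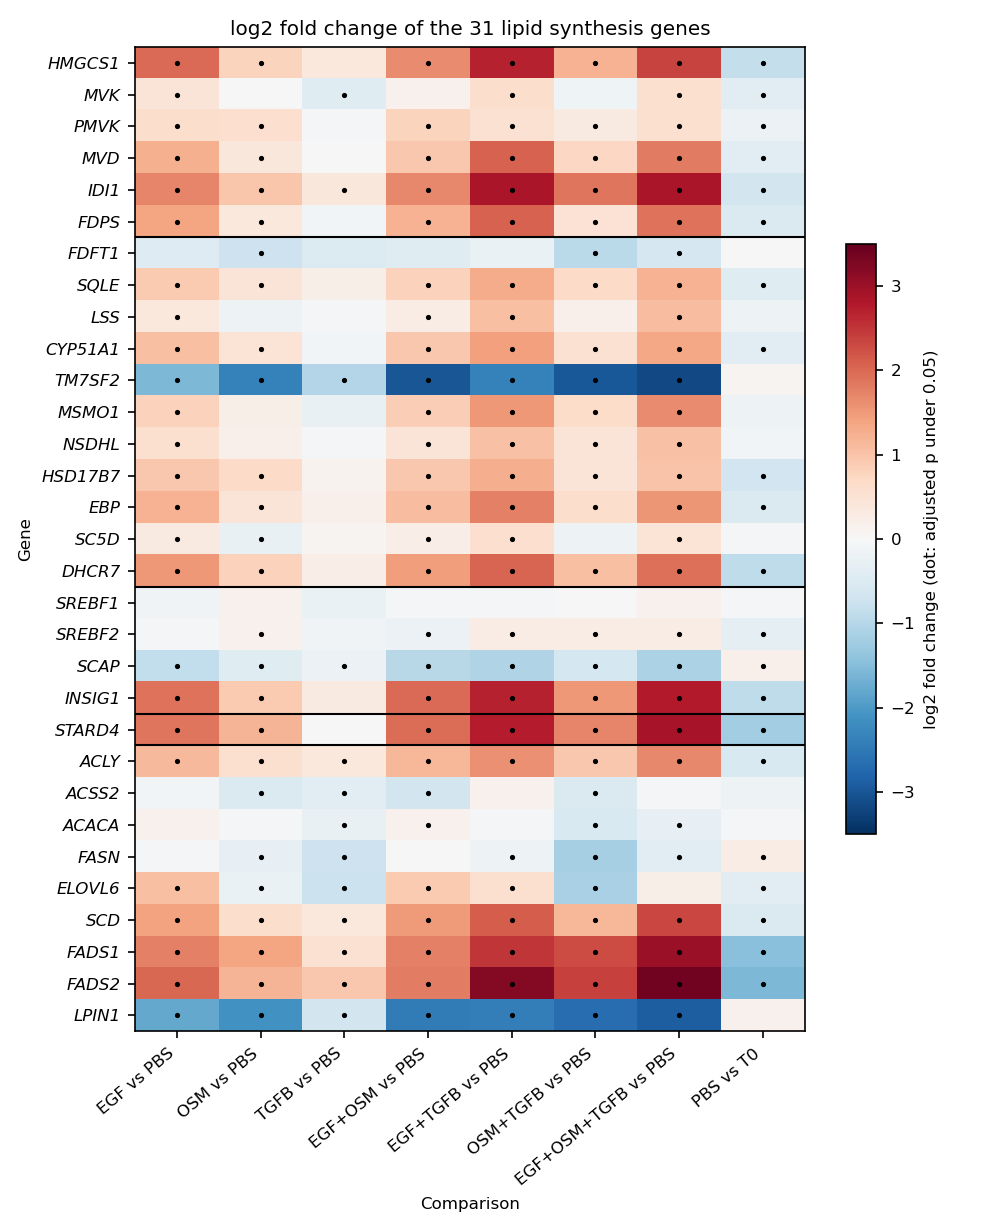
Heat map of the log2 fold change (colour) of the 31 genes (rows, grouped by role between the black lines) in the 7 treatments against PBS and in PBS against T0 (columns). Dots mark an adjusted p under 0.05. Rows from HMGCS1 to DHCR7 are mostly red in the columns with EGF, whereas TM7SF2, SCAP and LPIN1 are blue in all 7 treatments.

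**Figure D2:**
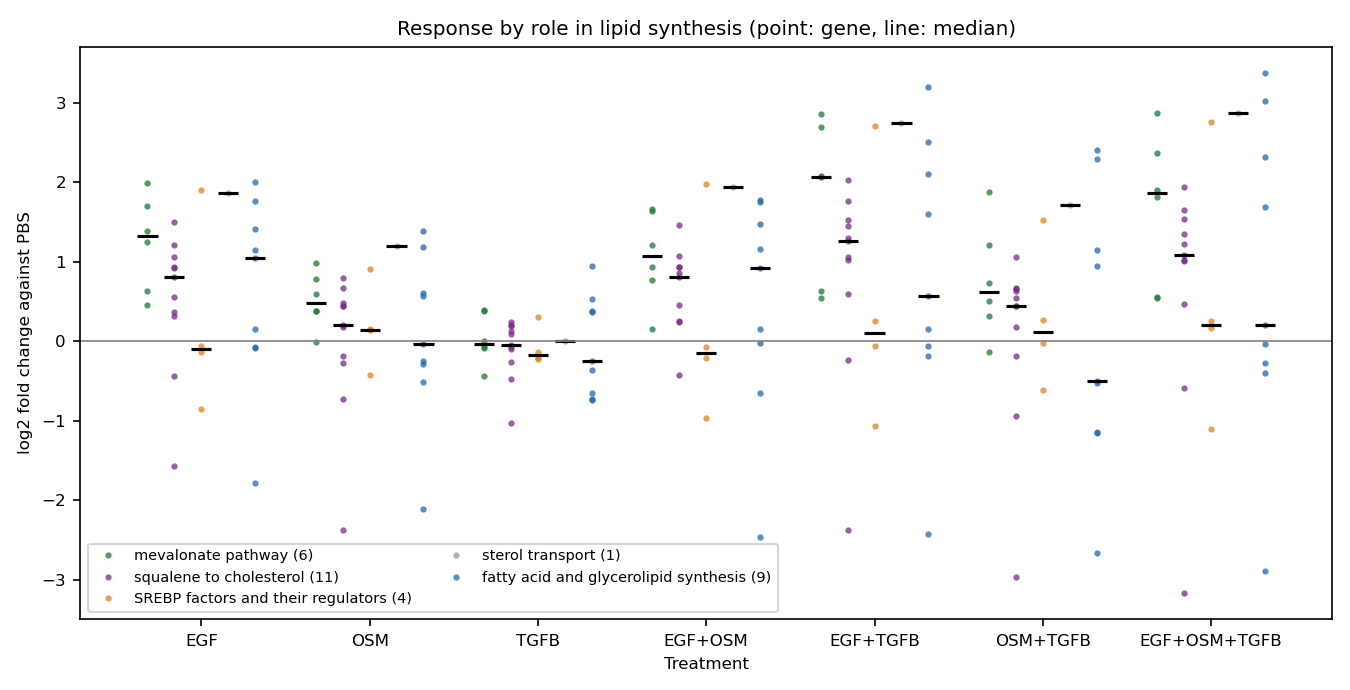
The log2 fold change against PBS (vertical axis) of every gene (point) by treatment (horizontal axis) and role (colour), with the median of each role as a black line. The mevalonate genes have a median of 1.32 with EGF and -0.035 with TGFB, and the fatty acid genes spread from -2.67 to 2.40 with OSM+TGFB.

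The mevalonate genes responded to EGF as a block. All 6 rose with EGF, 5 with OSM, and with TGFB 1 rose and 1 fell. HMGCS1, which makes the HMG-CoA that the pathway reduces, stood at 54.1, 60.8 and 70.2 CPM in the 3 PBS libraries, 242, 260.2 and 232 with EGF, 90.6, 92.9 and 137 with OSM and 66.1, 80.2 and 94.5 with TGFB. Every EGF and OSM library lay above every PBS library, and the TGFB libraries overlapped PBS. The log2 fold change was 1.99 ± 0.17 (SE) with EGF (adjusted p = 1.9e-09) and 0.79 ± 0.17 with OSM (0.00043), and with TGFB it was 0.38 ± 0.17, which did not pass (adjusted p = 0.094). IDI1, the isomerase that makes the reactive isoprene unit, was at 37.8, 41.7 and 43.0 CPM in PBS, 135, 134 and 128 with EGF, 73.2, 71.9 and 97.0 with OSM and 46.4, 54.6 and 60.8 with TGFB. No ligand's libraries overlapped PBS, and IDI1 was the mevalonate gene that rose with TGFB alone, by 0.40 ± 0.11 log2 units (SE; adjusted p = 0.0082), against 1.70 ± 0.11 with EGF. That TGFB call was lost without TGFB replicate 3 (0.31). MVK, the mevalonate kinase, rose with EGF and fell with TGFB: 0.46 ± 0.10 with EGF and -0.43 ± 0.11 with TGFB (adjusted p = 0.0022), with all TGFB libraries below all PBS libraries. MVD and FDPS, the decarboxylase and the synthase that ends the pathway, rose by 1.25 ± 0.13 and 1.39 ± 0.15 log2 units with EGF. With OSM both rose by 0.38, but MVD lost its call without PBS replicate 1 (0.25) or OSM replicate 3 (0.33), and FDPS without PBS replicate 1 (0.26), PBS replicate 2 (0.39), OSM replicate 3 (0.24) or EGF+TGFB replicate 3 (0.36) and under upper-quartile scaling (0.32). FDPS has processed pseudogenes of like sequence, and how reads were divided among them is not known.

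From squalene to cholesterol, 9 of 11 genes rose and 1 fell with EGF, 5 rose and 3 fell with OSM, and with TGFB only TM7SF2 was called, lower. SQLE, the epoxidase that is a control point of the pathway, was at 114, 134 and 156 CPM in PBS, 249, 259 and 262 with EGF, 167, 171 and 212 with OSM and 136, 152 and 178 with TGFB. Its EGF and OSM libraries were all above PBS (log2 fold changes 0.93 ± 0.12 and 0.44 ± 0.12), and its TGFB libraries overlapped PBS (0.20 ± 0.12, adjusted p = 0.19). LSS, which closes the sterol rings, was at 86.6, 94.4 and 97.0 CPM in PBS, 121, 126 and 111 with EGF, 78.9, 80.6 and 85.7 with OSM and 87.6, 88.6 and 89.5 with TGFB. It rose with EGF by 0.36 ± 0.087 log2 units, and its OSM libraries, all below PBS, did not pass the test (-0.18 ± 0.088, adjusted p = 0.076). That fall was called under upper-quartile scaling (-0.24) and without PBS replicate 1 (-0.23) or OSM+TGFB replicate 3 (-0.18). MSMO1, a sterol methyl oxidase, was at 100.0, 103 and 108 CPM in PBS, 184, 181 and 178 with EGF, 104, 104 and 152 with OSM and 72.4, 88.3 and 98.8 with TGFB. It rose with EGF (0.80 ± 0.12) and its OSM libraries overlapped PBS. With TGFB all 3 libraries lay below PBS but the fold change of -0.26 ± 0.12 did not pass (adjusted p = 0.11). It was called without OSM replicate 3 (-0.26) or TGFB replicate 3 (-0.37). DHCR7, whose enzyme makes cholesterol in the last step of one route, was at 43.3, 51.0 and 62.1 CPM in PBS, 141, 158 and 146 with EGF, 78.2, 88.2 and 106 with OSM and 53.03, 61.7 and 70.6 with TGFB. It had the largest rise of these 11 genes with EGF (1.51 ± 0.14) and with OSM (0.80 ± 0.15). SC5D, a desaturase, rose with EGF (0.32 ± 0.086) and fell with OSM (-0.27 ± 0.087), the latter call being lost without PBS replicate 3 (-0.22) or OSM replicate 2 (-0.21). CYP51A1, EBP, HSD17B7 and NSDHL, which carry out demethylation, isomerisation, ketone reduction and decarboxylation, rose with EGF by 0.56 to 1.22, and CYP51A1, EBP and HSD17B7 rose with OSM by 0.44 to 0.68. HSD17B7 has a near-identical pseudogene, so its counts are uncertain.

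Against this trend, TM7SF2 and FDFT1 had lower values under the ligands. TM7SF2, one of the enzymes with sterol C14 reductase activity, was at 7.18, 9.25 and 12.0 CPM in PBS, 2.56, 3.11 and 3.90 with EGF, 1.99, 2.02 and 1.46 with OSM and 3.60, 4.01 and 6.42 with TGFB. All ligand libraries lay below all PBS libraries, with log2 fold changes of -1.57 ± 0.21, -2.37 ± 0.23 and -1.02 ± 0.21 (SE; adjusted p = 4e-07, 1.6e-09 and 0.0004). The gene overlaps VPS51 in the annotation, and the strand setting of the authors' counting is not given in the sources used here. FDFT1, the squalene synthase that commits farnesyl diphosphate to sterols, was at 16.6, 20.2 and 21.6 CPM in PBS, 16.001, 12.5 and 14.6 with EGF, 13.9, 13.9 and 7.51 with OSM and 13.8, 12.3 and 15.997 with TGFB. It fell with OSM (-0.72 ± 0.22, adjusted p = 0.0066), and the lower values with EGF (-0.44 ± 0.21) and TGFB (-0.47 ± 0.22) did not pass. With EGF it was called under upper-quartile scaling (-0.50) and without PBS replicate 1 (-0.54) or OSM replicate 3 (-0.44). With TGFB it was called without OSM replicate 3 (-0.47). The row that carries this symbol averaged 602 counts; 889 protein-coding rows carry no symbol, and whether reads of the gene lie there was not tested.

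The genes for the SREBPs themselves moved little, and their regulator INSIG1 and the sterol carrier STARD4 moved strongly. SREBF1, which encodes the factor tied mainly to fatty acid genes, was at 82.5, 104 and 98.3 CPM in PBS, 84.4, 92.4 and 82.6 with EGF, 106, 113 and 95.4 with OSM and 74.4, 88.8 and 80.3 with TGFB. Every ligand's libraries overlapped PBS, and it was called in none of the 7 treatments, with 95% intervals of the log2 fold change of -0.37 to 0.093 for EGF, -0.089 to 0.37 for OSM and -0.46 to 0.0031 for TGFB. SREBF2, which encodes the factor tied mainly to cholesterol genes, was at 255, 272 and 289.6 CPM in PBS, 255, 269.9 and 258 with EGF, 293, 304 and 309 with OSM and 234, 246 and 263 with TGFB. Its rise with OSM was 0.15 ± 0.056 log2 units (adjusted p = 0.021), a call lost without PBS replicate 1 (0.11), OSM replicate 3 (0.13) or EGF+TGFB replicate 3 (0.13), by DESeq2 and under upper-quartile scaling (0.094); its interval with EGF was -0.18 to 0.056. SCAP, the escort protein's gene, was at 155, 165 and 167 CPM in PBS, 88.2, 91.6 and 90.1 with EGF, 125, 131 and 108 with OSM and 145, 139 and 136 with TGFB. It fell with each ligand, with log2 fold changes of -0.85 ± 0.055 for EGF, -0.42 ± 0.055 for OSM and -0.22 ± 0.055 for TGFB. INSIG1, which holds SREBP back and is itself an SREBP target, was at 11.03, 12.5 and 15.98 CPM in PBS, 51.2, 51.4 and 45.7 with EGF, 21.2, 21.4 and 31.6 with OSM and 13.4, 15.5 and 20.0 with TGFB. Its libraries were all above PBS with EGF (1.91 ± 0.17) and OSM (0.91 ± 0.17) and overlapped PBS with TGFB (0.30 ± 0.18, adjusted p = 0.2). STARD4, a carrier of cholesterol between membranes, was at 7.90, 6.95 and 8.55 CPM in PBS, 32.6, 26.5 and 26.2 with EGF, 18.4, 14.9 and 20.7 with OSM and 6.05, 8.67 and 8.79 with TGFB. It rose 3.65-fold with EGF and 2.30-fold with OSM, and with TGFB its log2 fold change was 0.0099 ± 0.13 (95% interval -0.26 to 0.28).

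The fatty acid genes split. ACLY, SCD, FADS1 and FADS2 rose with each of the 3 ligands, LPIN1 fell with each, and FASN, ACACA and ELOVL6, the synthesis and elongation enzymes, fell with TGFB. ACLY, the citrate lyase, was at 188, 200.2 and 203 CPM in PBS, 415, 458 and 436 with EGF, 276, 286 and 318 with OSM and 246, 254 and 266 with TGFB. No ligand library overlapped PBS, and the log2 fold changes were 1.15 ± 0.073, 0.57 ± 0.074 and 0.37 ± 0.074. SCD, which puts the first double bond into saturated fatty acids, was at 217, 257 and 264 CPM in PBS, 608, 715 and 633 with EGF, 327, 354 and 441 with OSM and 297, 320.3 and 341 with TGFB. The TGFB rise of SCD (0.38 ± 0.13, adjusted p = 0.027) was lost without PBS replicate 1 (0.30), TGFB replicate 2 (0.38) or TGFB replicate 3 (0.33). FADS1 and FADS2, the desaturases of polyunsaturated fatty acids, lie next to each other on chromosome 11 and overlap on opposite strands, so their counts may share reads if strand was not used. FADS2, which FEN1 overlaps in the annotation, was at 13.2, 13.5 and 13.9 CPM in PBS, 54.3, 58.3 and 50.7 with EGF, 29.2, 29.9 and 33.5 with OSM and 25.4, 24.5 and 28.5 with TGFB. FADS1 was at 18.1, 15.7 and 17.9 CPM in PBS, 57.1, 59.2 and 60.1 with EGF, 42.8, 43.8 and 48.3 with OSM and 24.3, 23.5 and 27.1 with TGFB. These had the largest rise with EGF (FADS2, 2.01 ± 0.11), with OSM (FADS1, 1.38 ± 0.088) and with TGFB (FADS2, 0.95 ± 0.12) among the 31 genes.

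FASN, the fatty acid synthase, was at 788, 877 and 867 CPM in PBS, 738, 864 and 800.2 with EGF, 666, 730.2 and 673 with OSM and 489, 530.2 and 508 with TGFB. Its EGF libraries overlapped PBS (95% interval -0.24 to 0.087), and it fell with OSM (-0.29 ± 0.079) and with TGFB (-0.73 ± 0.079, adjusted p = 6e-08). ELOVL6, which lengthens the product of that synthase, was at 54.7, 54.1 and 55.6 CPM in PBS, 111, 115 and 115 with EGF, 41.1, 41.4 and 56.3 with OSM and 30.1, 31.6 and 36.5 with TGFB. It moved in opposite directions, up with EGF (1.05 ± 0.10) and down with TGFB (-0.74 ± 0.10); its fall with OSM (-0.25 ± 0.10) was lost without PBS replicate 1 (-0.25), PBS replicate 2 (-0.25), PBS replicate 3 (-0.23), OSM replicate 1 (-0.17) or OSM replicate 2 (-0.17). ACACA, the acetyl-CoA carboxylase that makes malonyl-CoA, was at 204, 207 and 210.0 CPM in PBS, 208, 246 and 237 with EGF, 189, 207 and 214 with OSM and 168, 177 and 179 with TGFB. Its fall with TGFB was small (-0.25 ± 0.071, adjusted p = 0.0077). The symbol has 2 rows, and the alternate-locus row took 42.9% to 85% of its counts. With rows tested as deposited, only that row, which had the higher mean (56.02% of the symbol), was read for ACACA. It gave -0.06 and was not called, and the value of the other row is not given. ACSS2, which makes acetyl-CoA from acetate, was at 35.8, 39.0 and 39.2 CPM in PBS, 35.0, 37.6 and 35.0 with EGF, 25.0, 27.7 and 27.1 with OSM and 29.9, 29.5 and 29.7 with TGFB. Its EGF libraries overlapped PBS, and it fell with OSM (-0.52 ± 0.084) and TGFB (-0.36 ± 0.083). LPIN1, a phosphatidate phosphatase that makes the diacylglycerol of storage lipid and also acts as a coactivator in the nucleus, was at 221, 218 and 218 CPM in PBS, 63.4, 67.3 and 59.8 with EGF, 52.5, 56.2 and 43.8 with OSM and 138, 144 and 137 with TGFB. All 9 ligand libraries lay below PBS, with log2 fold changes of -1.79 ± 0.082, -2.11 ± 0.083 and -0.65 ± 0.081 (SE; adjusted p = 2.3e-15, 1.4e-16 and 5.8e-07).

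**Figure D3:**
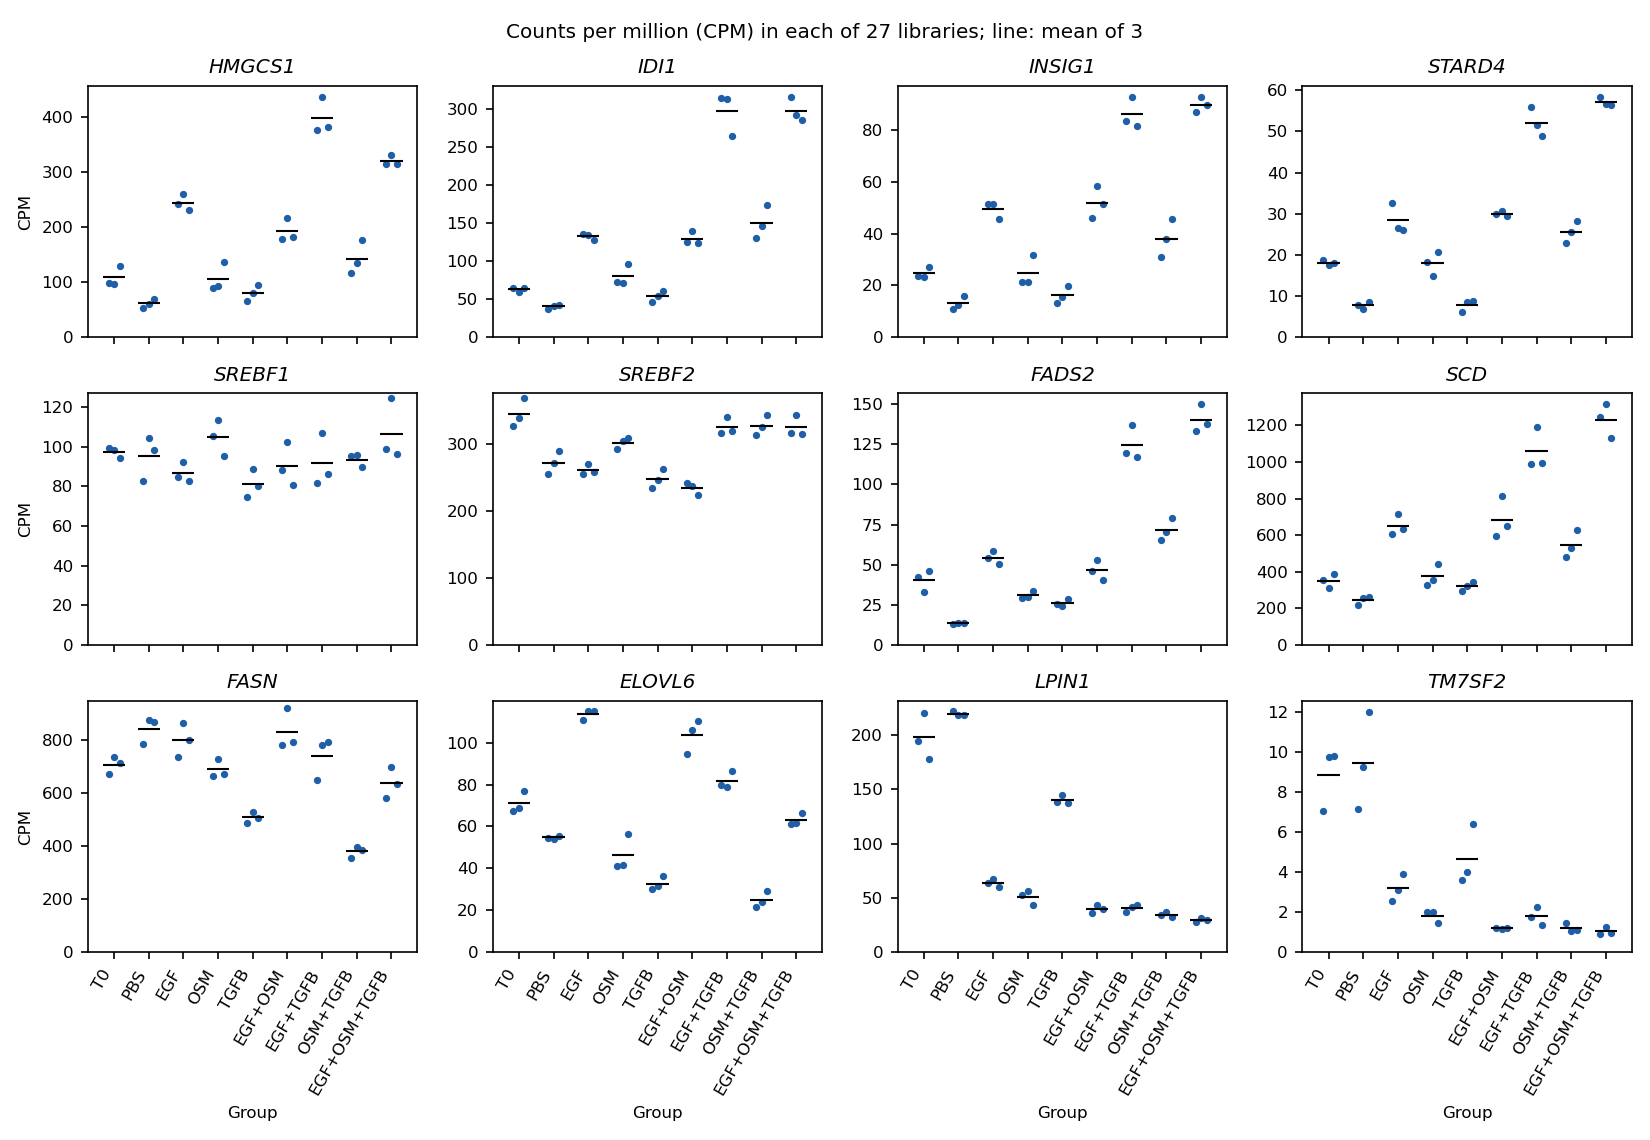
CPM (vertical axes, linear from 0) in each of the 27 libraries (points) with the group mean (line) for 12 of the genes, by group (horizontal axes). HMGCS1, IDI1, INSIG1, STARD4, FADS2 and SCD have their highest means in EGF+TGFB or EGF+OSM+TGFB, FASN and ELOVL6 their lowest in OSM+TGFB, and LPIN1 and TM7SF2 their lowest in EGF+OSM+TGFB.

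OSM and EGF were also compared with each other. With OSM 26 of the 31 genes were lower than with EGF and 3 were higher, against 28.8% and 28% of all genes, with a median of -0.57 (all genes, -0.001). The largest difference was that of ELOVL6, at -1.30 ± 0.10 log2 units against EGF (SE; adjusted p = 2e-10), followed by HMGCS1 at -1.20 ± 0.17; in both, every OSM library lay below every EGF library. The genes higher with OSM were SCAP (0.43 ± 0.056), SREBF1 (0.28 ± 0.11) and SREBF2 (0.21 ± 0.056), that is, the factors and their escort. The SREBF1 call (adjusted p = 0.037) was lost by DESeq2 and without EGF replicate 1 (0.26), EGF replicate 3 (0.24), OSM replicate 1 (0.27), OSM replicate 2 (0.22) or EGF+TGFB replicate 3 (0.26). All 9 fatty acid and glycerolipid genes were lower with OSM than with EGF, LPIN1 at -0.32 ± 0.084. The ACACA call (-0.18 ± 0.071) was lost without EGF replicate 2 (-0.13), EGF replicate 3 (-0.16) or OSM replicate 1 (-0.13). It was also lost in the alternate-locus row tested alone (-0.031). That of FASN (-0.21 ± 0.079) was lost without EGF replicate 2 (-0.16), OSM replicate 1 (-0.19) or OSM replicate 3 (-0.20).

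Over 24 h with PBS the group declined from its level at T0, which itself followed 18 h without growth factors. In PBS 19 of the 31 genes were lower than at T0 and 2 were higher (all genes, 18.9% and 16.2%), with a median of -0.37 (all genes, -0.0082). All 6 mevalonate genes fell, but MVD (-0.36, adjusted p = 0.044) lost its call without any 1 T0 library, PBS replicate 1 or 2, EGF replicate 1 or 2, OSM replicate 1, TGFB replicate 2, EGF+OSM replicate 1, EGF+TGFB replicate 3, or EGF+OSM+TGFB replicate 1 or 3 (values from -0.40 to -0.23), and FDPS (-0.52) without T0 replicate 3 (-0.39) or PBS replicate 1 (-0.40). The largest falls were those of FADS2 (-1.58 ± 0.11; T0 libraries at 42.1, 33.1 and 45.8 CPM), FADS1 (-1.46 ± 0.087; T0 at 47.7, 41.8 and 52.7) and STARD4 (-1.22 ± 0.12; T0 at 18.7, 17.5 and 18.2). In these, no PBS library reached the lowest T0 library. HMGCS1 was at 99.7, 97.5 and 130.3 CPM at T0 and INSIG1 at 23.6, 23.2 and 27.1, and their log2 fold changes were -0.82 and -0.90. IDI1 was at 65.1, 60.2 and 64.7, DHCR7 at 85.9, 87.8 and 115 and ACLY at 265, 267 and 321 CPM at T0, with log2 fold changes of -0.63, -0.88 and -0.53. SQLE (T0 at 174, 164 and 209.6), SCD (353, 310.1 and 385), ELOVL6 (67.5, 68.9 and 76.7) and SREBF2 (327, 339 and 368 CPM) also fell, the SQLE call being lost without T0 replicate 3 (-0.32). In each of these genes all PBS libraries lay below all T0 libraries. The genes that rose were FASN (0.25 ± 0.079; T0 at 672, 737 and 715 CPM) and SCAP (0.17 ± 0.055; T0 at 139, 149 and 145 CPM), calls lost without T0 replicate 1 (0.22), PBS replicate 2 (0.23) or PBS replicate 3 (0.23) for FASN and without T0 replicate 1 (0.15), PBS replicate 2 (0.16) or PBS replicate 3 (0.15) for SCAP. LSS (T0 at 102, 98.2 and 114 CPM), MSMO1 (125, 113 and 117), FDFT1 (16.8, 19.2 and 23.4), SREBF1 (99.4, 98.1 and 94.2), ACSS2 (38.5, 43.5 and 46.9), ACACA (201, 210.3 and 226), LPIN1 (195, 219.9 and 178) and TM7SF2 (7.07, 9.74 and 9.82) did not pass. The 6 proliferation markers fell too (median -2.29), and their part was not tested.

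On top of EGF, TGFB raised 4 of the 6 mevalonate genes and 9 of the 11 that follow. In all it raised 21 of the 31 genes and lowered 5 (all genes, 27% and 27.7%; median 0.39). Added to OSM, it raised 12 and lowered 7 (all genes, 26.1% and 25.6%; median 0.13). Added to EGF+OSM, it raised 21 and lowered 6 (all genes, 31.6% and 29.5%; median 0.47). These contrasts share no library with TGFB against PBS, and the signs were the same as with TGFB alone in 21, 23 and 22 of the 31 genes. In each case 5 genes were called higher and 5 lower both alone and added. Called only when TGFB was added were 15, 7 and 14 genes as higher and 0, 2 and 1 as lower. Calls were opposite in 1, 0 and 2. The share of all genes with the same sign was not computed. The proliferation markers moved the other way here, with 6 of 6 lower when TGFB was added to EGF (median -1.0), to OSM (-1.70) and to EGF+OSM (-1.30).

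IDI1 reached 315, 313 and 265 CPM with EGF+TGFB, 131, 146 and 174 with OSM+TGFB and 316, 293 and 285 with the 3 ligands, against 125, 139.9 and 124 with EGF+OSM. TGFB thus raised it by 1.17 ± 0.11 log2 units over EGF, 0.90 ± 0.11 over OSM and 1.20 ± 0.11 over EGF+OSM, with no overlap of libraries in any of these. HMGCS1 was at 377, 437 and 381 CPM with EGF+TGFB, 116, 136 and 177 with OSM+TGFB, 314, 331 and 314 with the 3 ligands and 179, 218 and 182 with EGF+OSM. Over EGF it rose by 0.70 ± 0.17 (adjusted p = 0.0012); over OSM the libraries overlapped, and the rise of 0.42 ± 0.17 (adjusted p = 0.043) was lost without EGF replicate 1 (0.42), OSM replicate 1 (0.32), OSM replicate 2 (0.33), TGFB replicate 2 (0.42), EGF+TGFB replicate 3 (0.42), OSM+TGFB replicate 2 (0.46) or OSM+TGFB replicate 3 (0.24) and under upper-quartile scaling (0.39). STARD4 was at 55.9, 51.5 and 48.9 CPM with EGF+TGFB, 22.8, 25.6 and 28.3 with OSM+TGFB, 58.4, 56.6 and 56.4 with the 3 ligands and 29.95, 30.6 and 29.6 with EGF+OSM. INSIG1 was at 83.3, 92.6 and 81.5 CPM with EGF+TGFB, 30.8, 37.9 and 45.4 with OSM+TGFB, 86.7, 92.7 and 89.5 with the 3 ligands and 45.9, 58.4 and 51.2 with EGF+OSM. TGFB raised STARD4 by 0.87 ± 0.11 over EGF (adjusted p = 3.8e-07) and INSIG1 by 0.80 ± 0.15 (0.00017), whereas neither was called for TGFB alone; the difference itself passed for STARD4 and not for INSIG1, as given with the pairs. SREBF2 was at 317, 340.2 and 319 CPM with EGF+TGFB, 313, 326 and 344 with OSM+TGFB, 317, 343 and 315 with the 3 ligands and 242, 237 and 224 with EGF+OSM. Its libraries were all higher with TGFB than without it on EGF (0.32 ± 0.056) and on EGF+OSM (0.47 ± 0.056), and on OSM the difference of 0.12 ± 0.056 did not pass (adjusted p = 0.084). SREBF1 was at 81.4, 107 and 85.9 CPM with EGF+TGFB, 95.3, 95.6 and 89.5 with OSM+TGFB, 98.8, 124 and 96.2 with the 3 ligands and 88.3, 102 and 80.5 with EGF+OSM, and no change with added TGFB passed the test (log2 0.083, -0.16 and 0.23).

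Later sterol enzymes rose over EGF too. LSS was at 178, 214 and 189 CPM with EGF+TGFB, 92.3, 101 and 122 with OSM+TGFB, 190.2, 205 and 193 with the 3 ligands and 118, 117 and 98.1 with EGF+OSM. MSMO1 was at 312, 309.9 and 276 CPM with EGF+TGFB, 140.4, 160.0 and 189 with OSM+TGFB, 339, 325 and 311 with the 3 ligands and 187, 204 and 175 with EGF+OSM. TGFB raised LSS by 0.70 ± 0.087 and MSMO1 by 0.73 ± 0.12 over EGF, with every EGF+TGFB library above every EGF library. SQLE was at 324, 338 and 330.0 CPM with EGF+TGFB, 189, 204 and 249.7 with OSM+TGFB, 306, 318 and 323 with the 3 ligands and 230.3, 243 and 233 with EGF+OSM. DHCR7 was at 199.7, 228 and 209.7 CPM with EGF+TGFB, 91.5, 107 and 128 with OSM+TGFB, 183, 207 and 209.8 with the 3 ligands and 135, 154 and 143 with EGF+OSM. Over EGF these rose by 0.37 ± 0.12 and 0.52 ± 0.14; over OSM neither passed (0.23 ± 0.12 and 0.26 ± 0.14). FDFT1 was at 14.7, 16.9 and 17.9 CPM with EGF+TGFB, 11.2, 11.9 and 7.17 with OSM+TGFB, 10.3, 15.4 and 13.4 with the 3 ligands and 14.7, 17.5 and 11.5 with EGF+OSM. TM7SF2 was at 1.76, 2.27 and 1.37 CPM with EGF+TGFB, 1.46, 1.06 and 1.103 with OSM+TGFB, 0.929, 1.29 and 0.972 with the 3 ligands and 1.19, 1.19 and 1.21 with EGF+OSM. Neither rose on any of these, and TM7SF2 fell when TGFB was added to EGF (-0.80 ± 0.24).

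**Figure D4:**
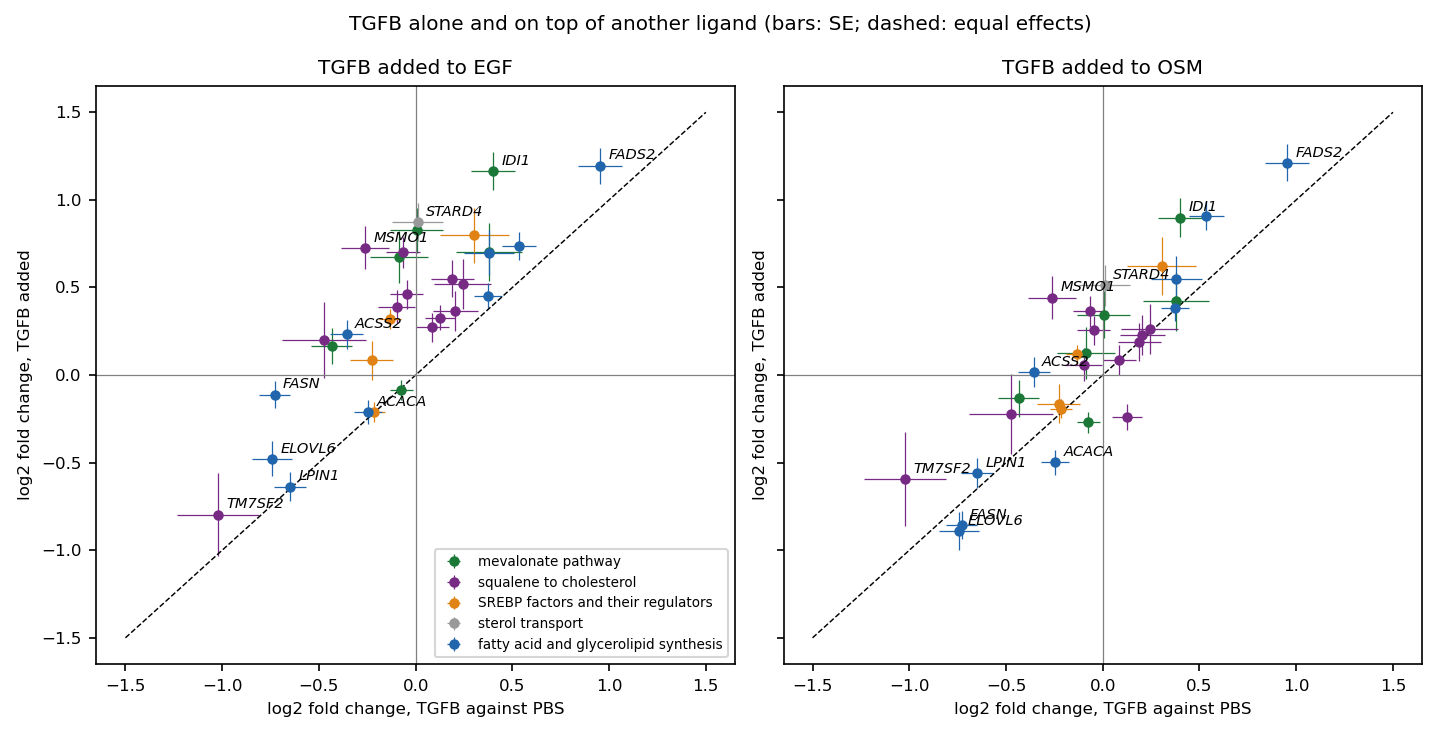
The log2 fold change of each of the 31 genes with TGFB alone (horizontal axes) and with TGFB added to EGF or to OSM (vertical axes), with SE bars, colours for roles and a dashed line of equal effects. Added to EGF, IDI1 and STARD4 lie well above the line (1.17 and 0.87 against 0.40 and 0.0099), while LPIN1 lies on it (-0.64 and -0.65).

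Fatty acid genes were split on top of the other ligands too. FADS2 was at 119, 137 and 117 CPM with EGF+TGFB, 65.3, 70.2 and 78.9 with OSM+TGFB, 133, 149.9 and 138 with the 3 ligands and 45.8, 53.2 and 40.4 with EGF+OSM. FADS1 was at 98.8, 98.4 and 96.5 CPM with EGF+TGFB, 76.8, 78.2 and 98.2 with OSM+TGFB, 136, 139 and 145 with the 3 ligands and 57.3, 61.9 and 55.7 with EGF+OSM. With the 3 ligands they were 10.4-fold and 8.13-fold above PBS, the largest rises among the 31 genes in any treatment apart from that of FADS2 with EGF+TGFB (9.23-fold). SCD was at 987, 1193 and 994 CPM with EGF+TGFB, 479.8, 532 and 628 with OSM+TGFB, 1244, 1319.6 and 1129.7 with the 3 ligands and 593, 815 and 648 with EGF+OSM. ACLY was at 574, 640.5 and 577 CPM with EGF+TGFB, 349, 372 and 424 with OSM+TGFB, 622, 645 and 647 with the 3 ligands and 422, 469 and 438 with EGF+OSM. TGFB raised both over EGF, SCD by 0.70 ± 0.13 and ACLY by 0.45 ± 0.073. FASN was at 650.3, 781 and 792 CPM with EGF+TGFB, 356, 398 and 388 with OSM+TGFB, 582, 699 and 635 with the 3 ligands and 780.3, 920.1 and 793 with EGF+OSM. TGFB lowered FASN over OSM (-0.86 ± 0.08, adjusted p = 2.7e-09) and over EGF+OSM (-0.38 ± 0.079), and over EGF the libraries overlapped (-0.11 ± 0.079, 95% interval -0.28 to 0.052). ELOVL6 was at 79.5, 78.7 and 86.6 CPM with EGF+TGFB, 21.8, 23.8 and 29.2 with OSM+TGFB, 61.4, 61.4 and 66.3 with the 3 ligands and 94.4, 106 and 110.1 with EGF+OSM. TGFB lowered it over EGF, OSM and EGF+OSM (-0.48 ± 0.10, -0.89 ± 0.11 and -0.72 ± 0.10). ACACA was at 187, 202 and 208 CPM with EGF+TGFB, 131, 146 and 156 with OSM+TGFB, 168, 174 and 171 with the 3 ligands and 206, 248 and 239 with EGF+OSM; with TGFB on OSM its log2 fold change was -0.50 ± 0.071. LPIN1 was at 37.0, 42.1 and 43.5 CPM with EGF+TGFB, 34.5, 36.8 and 32.2 with OSM+TGFB, 28.3, 31.1 and 29.5 with the 3 ligands and 35.9, 43.6 and 40.3 with EGF+OSM. TGFB lowered LPIN1 over EGF (-0.64 ± 0.085) and OSM (-0.56 ± 0.087) as well as alone (-0.65 ± 0.081), and the differences from TGFB alone had 95% intervals of -0.23 to 0.26 and -0.16 to 0.34. SCAP was at 74.6, 79.4 and 79.1 CPM with EGF+TGFB, 109.7, 107 and 101 with OSM+TGFB, 76.5, 77.6 and 71.9 with the 3 ligands and 86.5, 81.0 and 83.02 with EGF+OSM, and TGFB lowered it over EGF (-0.21 ± 0.056).

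The design asks whether a combination gives the sum of its parts. A pair's departure is its log2 fold change minus the summed log2 fold changes of both ligands given singly. It is 0 where the effects add on the log2 scale. For a pair with TGFB it also is the difference between TGFB added to the other ligand and TGFB alone. EGF and OSM gave less than their sum. Of the 31 genes 18 had a called departure below 0 and 4 above (all genes, 23% and 15.7%; median -0.45), and in all 22 the departure had the opposite sign to the sum. In 28 of the 31 genes the log2 fold change of the pair lay within 0.5 of that of EGF alone. Both values share the PBS libraries. Neither this count nor that of opposite signs was computed for all genes, so they are not particular to this group. FADS2 (-1.42 ± 0.16, SE; adjusted p = 1.1e-07), FADS1 (-1.40 ± 0.12) and HMGCS1 (-1.13 ± 0.24) fell furthest short of the sum among the genes that rose. LPIN1 (1.44 ± 0.12; adjusted p = 7e-10) and TM7SF2 (0.96 ± 0.34) did so among those that fell. The TM7SF2 call was lost without PBS replicate 3 (0.76), EGF replicate 1 (0.83), OSM replicate 3 (0.83) or EGF+OSM replicate 3 (0.95).

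EGF and TGFB together gave more than their sum in 9 genes. Of the 31 genes 12 had a called departure above 0 and none below (all genes, 13.3% and 16.5%; median 0.33). At an unadjusted p under 0.05 edgeR's quasi-likelihood test also gave 0 below. The lowest departure of the 31 was -0.012, so this count is no separate evidence. DESeq2 also gave 12 and 0. In 9 of the 12 the departure had the sign of the sum, and in 3 the opposite sign. They were MSMO1 (0.99 ± 0.17, SE; adjusted p = 0.0002), STARD4 (0.86 ± 0.17), MVD (0.82 ± 0.19), LSS (0.77 ± 0.12), IDI1 (0.76 ± 0.16), FDPS (0.76 ± 0.21), FASN, MVK, ACSS2, NSDHL, CYP51A1 and SREBF2, the last 6 between 0.45 and 0.62. INSIG1, FADS1, FADS2, SCD and LPIN1 did not pass, with departures of 0.49, 0.20, 0.24, 0.32 and 0.013. ACSS2 changed direction: it was at 39.1, 46.9 and 40.4 CPM with EGF+TGFB, 26.1, 25.4 and 29.3 with OSM+TGFB, 35.9, 40.1 and 35.5 with the 3 ligands and 22.8, 27.7 and 22.3 with EGF+OSM. TGFB lowered it alone (-0.36 ± 0.083) and raised it over EGF (0.23 ± 0.083, adjusted p = 0.018), and the test of that difference gave 0.59 ± 0.12 (adjusted p = 0.00044). The call over EGF was lost without EGF replicate 1 (0.21), EGF replicate 3 (0.21) or EGF+TGFB replicate 2 (0.15).

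OSM and TGFB had fewer called departures. Of the 31 genes 7 had a called departure above 0 and 1 below (all genes, 9.61% and 13.7%; median 0.17). MSMO1 led again (0.70 ± 0.17, adjusted p = 0.0054), followed by STARD4 (0.50 ± 0.18) and IDI1 (0.50 ± 0.16), and HSD17B7 was the gene below 0 (-0.36 ± 0.11). HSD17B7 was at 10.9, 9.86 and 11.3 CPM in PBS, 16.3, 17.3 and 17.7 with OSM, 11.4, 12.2 and 11.4 with TGFB and 13.5, 14.7 and 15.3 with OSM+TGFB, so the pair stood above PBS and below OSM alone. The MSMO1 call was not lost with any library left out. Those of the other 3 were: STARD4 without PBS replicate 1 (0.49), PBS replicate 3 (0.43), OSM replicate 1 (0.52), OSM replicate 2 (0.38), TGFB replicate 1 (0.35), OSM+TGFB replicate 2 (0.50) or OSM+TGFB replicate 3 (0.42), IDI1 without PBS replicate 2 (0.48), PBS replicate 3 (0.46), OSM replicate 1 (0.43), OSM replicate 2 (0.42), TGFB replicate 1 (0.40) or OSM+TGFB replicate 3 (0.38), and HSD17B7 without PBS replicate 2 (-0.31). The count of 8 called genes dropped to 5 without PBS replicate 2, 3 without PBS replicate 3, 4 without OSM replicate 1, 4 without TGFB replicate 1 and 3 without OSM+TGFB replicate 3. For the 3 ligands together, against the sum of the 3 single responses, 9 departures were above 0 and 5 below (all genes, 22% and 25.9%; median 0.14, which was -0.066 without PBS replicate 3). TM7SF2 (1.80 ± 0.46) and LPIN1 (1.66 ± 0.17), which fell by less than the sum, had the highest of the called departures, and FADS2 (-0.78 ± 0.23) and HSD17B7 (-0.73 ± 0.15), which rose by less than the sum, the lowest.

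**Figure D5:**
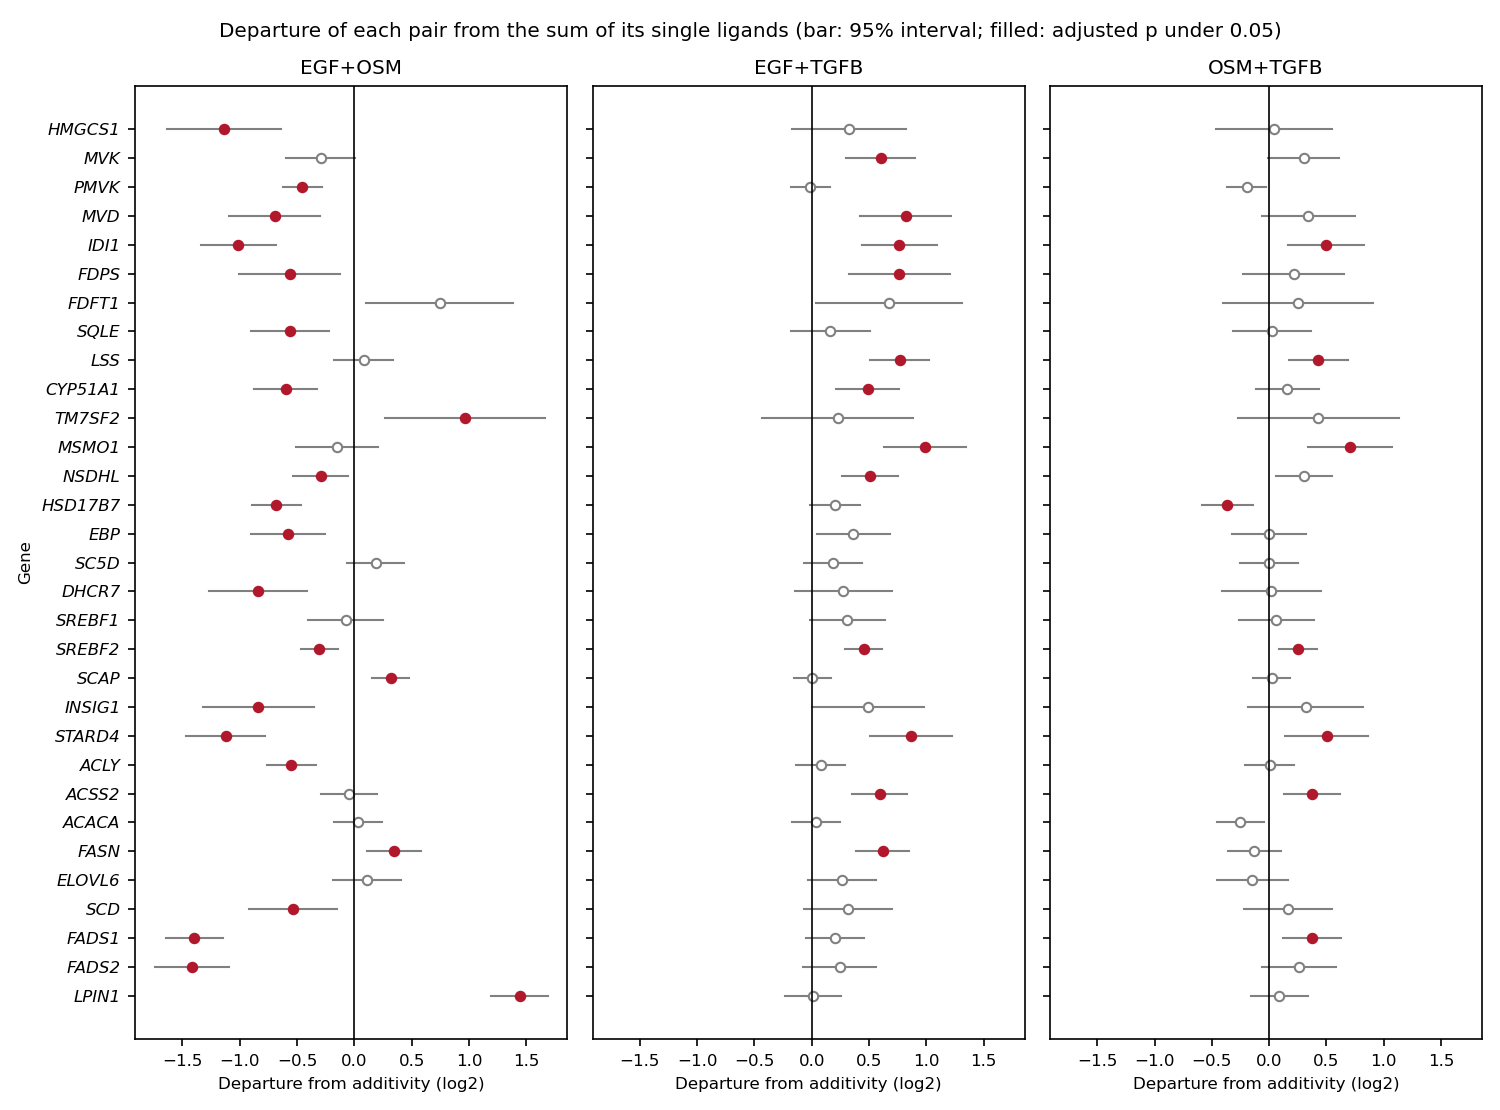
Departure of each of the 31 genes (rows) from the sum of the single ligands (horizontal axis, log2) for the 3 pairs, with 95% intervals and filled points for an adjusted p under 0.05. For EGF+OSM most points lie left of 0, down to -1.42 for FADS2, and for EGF+TGFB right of 0, up to 0.99 for MSMO1.

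Across the 9 groups, 11 of the 31 genes had their highest mean with the 3 ligands and 10 with EGF+TGFB, and 13 had their lowest in PBS and 7 with TGFB. The group means of log2 level correlated with a median r of 0.81 between the 15 pairs of mevalonate genes, 0.84 between the 55 pairs of the squalene-to-cholesterol genes, 0.19 between the 36 pairs of fatty acid genes and 0.077 between the 6 pairs of SREBP factors and regulators (n = 9 groups). These values are descriptions, since all pairs share the same libraries. Neither they nor the counts of highest and lowest means were computed for all genes. In the squalene-to-cholesterol genes r reached down to -0.71, and in the fatty acid genes down to -0.84.

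Other genes of the same pathways were taken from lists compiled by function. Their counts are to be read against the shares of all genes called higher and lower, which were 34.9% and 38.6% with EGF, 33.5% and 29.8% with OSM and 19.9% and 15.8% with TGFB; with so few genes per list, several counts lie near these shares. Of 9 further genes of sterol synthesis and SREBP processing, 6 rose and 3 fell with EGF, 3 rose and 2 fell with OSM, and 2 rose and 3 fell with TGFB. ACAT2, which makes acetoacetyl-CoA for HMGCS1, rose by 1.99 ± 0.16 with EGF and 0.73 ± 0.16 with OSM, and FAXDC2, a member of the sterol oxidase family, fell with EGF (-2.31 ± 0.18) and rose with TGFB (1.04 ± 0.16). Of 11 genes of the isoprenoid branch, which uses farnesyl diphosphate for ubiquinone, dolichol and protein prenylation, 5 rose and 3 fell with EGF, 5 rose and 3 fell with OSM, and 3 fell with TGFB. PDSS1 and COQ2, of ubiquinone synthesis, rose by 1.54 ± 0.14 and 1.32 ± 0.12 with EGF. Of 13 other genes of fatty acid synthesis and elongation, 4 rose and 6 fell with EGF, 1 rose and 7 fell with OSM and 3 rose and 7 fell with TGFB. HACD3, a dehydratase of elongation, rose by 1.36 ± 0.07 with EGF and 0.57 ± 0.071 with TGFB. ACACB, the carboxylase of the mitochondrial membrane, fell with OSM (-1.46 ± 0.17) and TGFB (-0.62 ± 0.16).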

How the data were processed

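Polyadenylated RNA of MCF10A cells was measured in 27 libraries made with a stranded kit, per the labels' protocols. The authors deposited 1 table of 40487 gene rows whose values are an estimated count per gene, since the submitters' processing notes name kallisto 0.46.2 beside Trim Galore 0.4.3, cutadapt 1.10, FastQC 0.11.5 and R 3.5.0, with builds GRCh38.p5 and hg38. The order of those steps, the summing of transcripts to genes and the rounding are not given in the sources used here. Values were whole as deposited. Rows without a symbol held 0.324% of the counts and stayed in the tests.

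Rows that share a symbol were summed. edgeR 4.0.16 in R 4.3.3 was used: filterByExpr by group, TMM scaling (factors 0.867 to 1.12), and a quasi-likelihood fit with a mean per group over all 27 libraries (18 residual degrees of freedom, biological coefficient of variation 7.83%). Contrasts, 16 in all, were adjusted by the Benjamini-Hochberg method over 15575 genes and called at 0.05. Fold changes use a prior count of 0.125, and standard errors come from the quasi-dispersion. The code was checked on simulated data. Alternatives were DESeq2 1.42.0, upper-quartile scaling, no filter, rows as deposited, a replicate block, a limit of 2-fold and leaving out each library. Where rows as deposited shared a symbol, only the row with the highest mean count was read. The 31 genes and all lists were chosen with earlier results of these data known. Values in every library are given for 20 genes listed by name and for the genes with the 2 largest rises and falls of each comparison; of other lists at most the 2 called genes that changed most per comparison are named. Libraries total 30.1 to 52.9 M counts; intervals of counting error are not given, since replicates vary by more.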

Additional observations from a re-analysis of the deposited data

Results flagged for a closer look

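Responses to a ligand differed with the other ligand present, by the test of the difference itself (edgeR's quasi-likelihood test, adjusted p under 0.05). It passed for 22 of the 31 genes for EGF with OSM (38.7% of all genes tested) and 12 for EGF with TGFB (29.8%). For OSM with TGFB it passed for 8 (23.3%), a count near the share of all genes. ACSS2 was lower with TGFB alone (-0.36) and higher when TGFB was added to EGF (0.23), a difference of 0.59 on the log2 scale. Groups of 3 libraries were not searched for libraries far from the others.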

How the results depend on the processing

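The called log2 fold changes of the genes, 350 over the 16 comparisons, kept their direction under all alternatives. They lost their call in 4 cases with DESeq2, 9 with upper-quartile scaling, 17 without a filter on low counts, 7 with rows tested as deposited, 180 with 1 library left out, over all 27 in turn, and 240 with an added limit of 2-fold. With that limit the number of the 31 genes called, with the share of all genes called in the same way, was 16 (27.5%) for EGF, 5 (20.1%) for OSM, 1 (5.8%) for TGFB, 13 (34.7%) with EGF+OSM, 21 (30.1%) with EGF+TGFB, 12 (24.2%) with OSM+TGFB, 21 (31.4%) for the 3 ligands, 3 (5.52%) for PBS against T0 and 4 (13.1%) for OSM against EGF. It was 2 (9.46%), 1 (9.14%) and 3 (15%) for TGFB added to EGF, OSM and EGF+OSM. Among departures it was 6 (10.3%) for EGF+OSM, 0 (4.26%) for EGF+TGFB, 0 (4.63%) with OSM+TGFB and 2 (21.1%) when all 3 were given. With higher and lower calls pooled, the counts for OSM, TGFB and OSM against EGF are not above the background under this limit. Nor are those for TGFB added to EGF, OSM or EGF+OSM. The same holds for the departures of EGF+TGFB, OSM+TGFB and the 3 ligands. For OSM against EGF all 4 genes were lower, whereas 63.6% of all genes called were higher. With TGFB the 1 gene was lower, whereas 70.3% were higher. For TGFB added to EGF, OSM or EGF+OSM every gene of the group called was higher, against 56.3%, 53% and 59.4%. Shares of all genes by direction were not computed under this limit, so the pooled comparison does not answer for either direction alone. The 17 calls lost without a filter were those of MVD, FDPS, SREBF2 and ELOVL6 with OSM, SCD with TGFB, FASN with EGF+TGFB, MVD in PBS against T0, SREBF1 in OSM against EGF, HMGCS1 and MVD for TGFB added to OSM, and FDPS, NSDHL and SCD (EGF+OSM), IDI1 and STARD4 (OSM+TGFB) and MVK and ACLY (3 ligands) among departures. Leaving out 1 library gave 3 to 9 called departures for OSM+TGFB and a median departure for the 3 ligands of -0.066 to 0.24; the median of the genes ran from 0.24 to 0.50 for OSM, from -0.11 to 0.024 for TGFB and from 0.070 to 0.26 for TGFB added to OSM. Upper-quartile scaling moved the all-gene median with EGF from -0.072 to -0.14, and fold changes of that size are relative to the scaling. The replicate numbers do not pair the libraries by any label. Deviations of same-numbered libraries had a mean r of 0.063 (108 pairs, -0.027 to 0.18). In 26 of 27 libraries the mean correlation with libraries of other groups was nevertheless highest for their own number. This is a hint from the data and not the design. With the replicate number as a block, all 350 calls remained and the number of genes called, with the share of all genes, was 26 (74.7%) for EGF, 18 (40%) for TGFB, 24 (54.3%) for TGFB added to OSM, 15 (35.4%) for the EGF+TGFB departures and 11 (28.3%) for those of OSM+TGFB. The genes called for TGFB with the block and not in the main fit were HMGCS1, SQLE, DHCR7, SREBF1 and SREBF2. With the block SREBF1 was also called for the 3 ligands (0.16). SREBF2 was called lower with TGFB by DESeq2 (-0.14) and under upper-quartile scaling (-0.17) too. The same held without PBS replicate 1, TGFB replicate 3 or EGF+TGFB replicate 3. HMGCS1 was called for TGFB without TGFB replicate 1 (0.50), and SREBF1 without PBS replicate 1 (-0.32). Alternatives gave further calls absent from the main fit, not all of which are listed. Standard errors for EGF were largest for TM7SF2 and FDFT1 (0.21 each). The lowest count of a library was 31, for TM7SF2, so counting error weighs most there.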

Other observations

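Of 13 genes of fatty acid oxidation, 10 fell with EGF (median -0.87), 12 fell with OSM (-0.67), and 7 fell with TGFB (-0.32), by edgeR's quasi-likelihood test at an adjusted p under 0.05. Of all genes, 38.6%, 29.8% and 15.8% were called lower, and their median was -0.072, 0.0023 and -0.0087. PDK4, a kinase that inhibits pyruvate dehydrogenase, fell from 481 ± 37.6 CPM in PBS to 21.2 ± 1.74 with EGF and 4.02 ± 1.14 with the 3 ligands (SD, n = 3), log2 fold changes of -4.50 ± 0.18 and -6.92 ± 0.24 (SE). PPARA, a receptor that drives oxidation genes, fell with EGF (-1.86 ± 0.10), HADHB, of the mitochondrial trifunctional protein, fell with OSM (-1.13 ± 0.062) and ACADM, a dehydrogenase of medium-chain fatty acids, fell with TGFB (-0.79 ± 0.086).

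Of 10 genes of sterol uptake and efflux, 2 rose and 6 fell with EGF, 5 rose and 4 fell with OSM, and 4 rose and 1 fell with TGFB. Among all genes the shares called higher and lower were 34.9% and 38.6%, 33.5% and 29.8%, and 19.9% and 15.8%, so several of these counts are close to the background. The efflux transporters ABCA1 and ABCG1 fell with EGF (-5.36 ± 0.81 and -2.59 ± 0.28) and rose with TGFB (1.25 ± 0.31 and 1.02 ± 0.25). The level of ABCA1 was 4.04 ± 1.14 CPM under PBS, against 0.0947 ± 0.0195 under EGF and 9.57 ± 0.963 under TGFB (SD, n = 3). Of 10 genes of lipid storage and esterification, 3 rose and 5 fell with EGF, 3 rose and 4 fell with OSM and 4 rose and 2 fell with TGFB, against the same shares. The lipase gene PNPLA2 fell with EGF (-1.53 ± 0.13) and OSM (-1.36 ± 0.13), the droplet coat gene PLIN3 rose with OSM (1.21 ± 0.062), and the acyltransferase gene GPAM rose with TGFB (1.14 ± 0.066).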
